A study of Homo sapiens with 9 samples.

Results

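Serpins are a family of structurally alike proteins, most of which inhibit serine proteases. The genes whose symbol on the array's platform annotation begins with SERPIN were taken as members, which gave 31 genes with 49 probe sets. A further probe set that names both SERPINB4 and SERPINB3 is described on its own. The whole table holds 54613 probe sets and 19775 named genes. Transcript signals came from 9 single-colour arrays of HuCCT1, an established human cell line of bile duct cancer (cholangiocarcinoma). In 4 arrays the cells had been given an empty vector, and in 5 they had been given YAPS127A, a vector for the S127A mutant of YAP1. This mutant is constitutively active, since it lacks a serine whose phosphorylation by Hippo pathway kinases keeps YAP1 out of the nucleus. All groups share the same line and medium, and no other agent or time is given. The samples are numbered within each group but not said to be separate cultures or transfections, so the p-values rest on the spread among these arrays alone, and that spread could be technical. A lower signal in such bulk RNA cannot tell fewer expressing cells from less RNA per cell.

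An inhibitory serpin offers an exposed loop to its target protease, which cuts the loop and is then trapped and distorted, so each molecule works only once. Clade A members such as alpha-1-antitrypsin are secreted, mainly by the liver, and include carriers of hormones that inhibit nothing. Clade B members lack a classical signal peptide and mostly act inside cells. Other clades hold inhibitors of thrombin, plasmin and plasminogen activators, the complement inhibitor, and SERPINH1, a chaperone of collagen in the endoplasmic reticulum.

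Values are deposited log2 signals per probe set, whose medians per array lay between 5.95 and 5.97. The median of all values was 5.96, and this level serves below to mark dim probe sets, because no detection calls are used here. A gene is represented by its brightest probe set, and a gene passed where limma gave an adjusted p under 0.05 over all probe sets. YAP1 itself was at 12.56 ± 0.06 (SD, n = 4) with the empty vector and at 12.71 ± 0.07 (SD, n = 5) with YAPS127A, which did not pass (adjusted p = 0.121). No label or file header says whether its probe sets read the construct, so this does not check the labels. ANKRD1, a well-known target of YAP1, rose from 10.88 ± 0.31 (SD, n = 4) to 13.12 ± 0.15 (SD, n = 5), a difference of 2.24 (adjusted p = 3.38e-07). The 6 measured cholangiocyte markers of 7 listed lay above the median in at least 1 group. Their mean signal was 11.59 to 11.65 in the empty vector arrays and 10.84 to 10.97 in the YAPS127A arrays. Of them CFTR (6.74 to 4.02), MUC1 (9.01 to 7.95) and SOX9 (-0.25) fell, while KRT19, KRT7 and EPCAM did not pass. Of 9 hepatocyte markers, ALB (4.26 and 4.23), AHSG, FGB, TF, TTR and CYP3A4 lay below the median in both groups. SERPINA1, APOA1 and CPS1 lay above it, and CPS1 rose by 2.09. The mean signal over the 9 hepatocyte markers was 6.28 to 6.38 in the empty vector arrays and 6.39 to 6.47 in the YAPS127A arrays. This mean includes SERPINA1, itself a serpin that fell (-0.62), and CPS1, the only hepatocyte marker that passed with a rise. Of 3 measured blood markers PTPRC and CD3E were dim, and LYZ fell from 7.42 to 5.18. The part of these markers in the results was not tested. The difference between the 3' and 5' probe sets of actin, a sign of RNA integrity and amplification, was 1.25 ± 0.31 (SD, n = 4) and 1.09 ± 0.28 (SD, n = 5), with p = 0.444 in a 2-sided exact permutation test.

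Promoter sequences are shown for 4 of the members that passed, to set the letters before their starts beside the direction of their signals. They are the 250 bases before a gene's start in RefSeq on GRCh38.p14, and 23 of the 31 genes (9 of the 10 that passed) had at least 1 start in that table, with 33 starts in all. Capitals mark matches to any of 7 short motifs, on either strand: GGAATG (TEAD factors, the DNA-binding partners of YAP1), TGANTCA (AP-1), TTGCNNAA (C/EBP), GTTAAT (a part of the HNF1 site), GAANNTTC (a core of the heat shock element), GGGCGG (GC box) and TATAAA (a core promoter element). Matches of different motifs may overlap. Every window shown holds a match. Among the starts not shown of members that passed, those of SERPINA3 and SERPINI1 held none of these motifs. The downstream SERPINH1 start held only a GC box.
SERPINA1 upstream start chr14:94390636-94390885 (- strand): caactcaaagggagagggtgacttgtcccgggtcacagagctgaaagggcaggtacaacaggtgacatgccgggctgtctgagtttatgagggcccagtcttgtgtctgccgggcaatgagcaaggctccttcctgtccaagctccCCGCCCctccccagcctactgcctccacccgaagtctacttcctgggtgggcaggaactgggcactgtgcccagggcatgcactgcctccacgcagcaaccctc
SERPINA1 downstream start chr14:94388603-94388852 (- strand): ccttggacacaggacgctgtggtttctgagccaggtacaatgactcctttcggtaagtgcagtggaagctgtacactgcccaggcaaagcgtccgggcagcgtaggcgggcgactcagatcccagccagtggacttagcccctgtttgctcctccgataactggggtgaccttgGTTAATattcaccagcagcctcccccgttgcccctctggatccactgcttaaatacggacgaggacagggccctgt
SERPINA5 chr14:94581176-94581425 (+ strand): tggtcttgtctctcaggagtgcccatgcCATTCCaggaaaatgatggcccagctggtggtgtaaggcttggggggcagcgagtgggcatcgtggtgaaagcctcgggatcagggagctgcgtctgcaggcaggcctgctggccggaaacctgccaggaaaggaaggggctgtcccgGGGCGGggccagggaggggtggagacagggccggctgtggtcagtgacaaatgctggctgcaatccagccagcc
SERPINA6 chr14:94323337-94323586 (- strand): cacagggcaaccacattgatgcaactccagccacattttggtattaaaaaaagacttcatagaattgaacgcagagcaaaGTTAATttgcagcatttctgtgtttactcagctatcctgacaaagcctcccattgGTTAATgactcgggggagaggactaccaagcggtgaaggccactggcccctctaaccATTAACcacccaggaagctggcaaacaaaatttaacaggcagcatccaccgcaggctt
SERPINH1 upstream start chr11:75562003-75562252 (+ strand): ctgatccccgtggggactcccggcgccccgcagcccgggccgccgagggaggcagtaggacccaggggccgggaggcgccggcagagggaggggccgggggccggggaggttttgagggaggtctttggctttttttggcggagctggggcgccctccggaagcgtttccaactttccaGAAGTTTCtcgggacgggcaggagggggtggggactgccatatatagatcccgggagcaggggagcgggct

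The 2 SERPINA1 starts lie 2033 bases apart, and the downstream one carries GTTAAT from 76 to 71 bases before the start. SERPINA6 carried the same letters at 3 places, 1 of them as the reverse complement ATTAAC. Of the 33 serpin starts, 7 held these letters (SERPINA1, SERPINA4, SERPINA6, SERPINA7, SERPINA10, SERPINB12 and SERPINI2, with 1 start each), against 6.23% of all 35116 promoters of the same length. Only 2 of these 7 genes, SERPINA1 and SERPINA6, passed. The TEAD letters were in 4 serpin starts, those of SERPINA5, SERPINA12, SERPINB3 and SERPINB4, against 11.9% of all promoters. SERPINA5, where they stand as CATTCC from 222 to 217 bases before the start, was the only one of these 4 genes that passed. The heat shock letters were in 3 serpin starts (5.78% of all promoters), 1 each of SERPINH1 (71 to 64 bases before the start), SERPINB7 and SERPINA10. SERPINH1 and SERPINB7 rose and SERPINA10 did not pass, and each of these genes also has a start without these letters. AP-1 letters were in 7 starts (6.57% of all promoters), C/EBP letters in 5 (9.05%), GC boxes in 9 (42.6%) and the core promoter element in 7 (10.7%). Such matches describe these windows and no more.

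Among the serpins more genes fell than rose with YAPS127A. Of the 31 genes, 8 fell (SERPINA1, SERPINA3, SERPINA5, SERPINA6, SERPINB9, SERPINE2, SERPINF1 and SERPINI1), 2 rose (SERPINH1 and SERPINB7) and 21 did not pass. The 10 that passed are 32.3% of the members, beside 28.7% of all 19775 genes. The 8 that fell are 25.8% of the members, beside 14.2% of all genes that fell, and the 2 that rose are 6.45%, beside 14.5%. The median log2 difference was -0.03 over the serpins and 0.00 over all genes. Over probe sets, 13 of 49 passed (26.5%, beside 23.9% of all probe sets), with 11 lower (22.4%, beside 12%) and 2 higher (4.08%, beside 11.9%). The differences were modest, since SERPINA3 alone passed 2-fold by its brightest probe set. In 9 of the 31 genes the 2 groups did not overlap, beside 28.3% of all genes. These 9 were the genes that passed without SERPINI1.

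**Figure D1:**
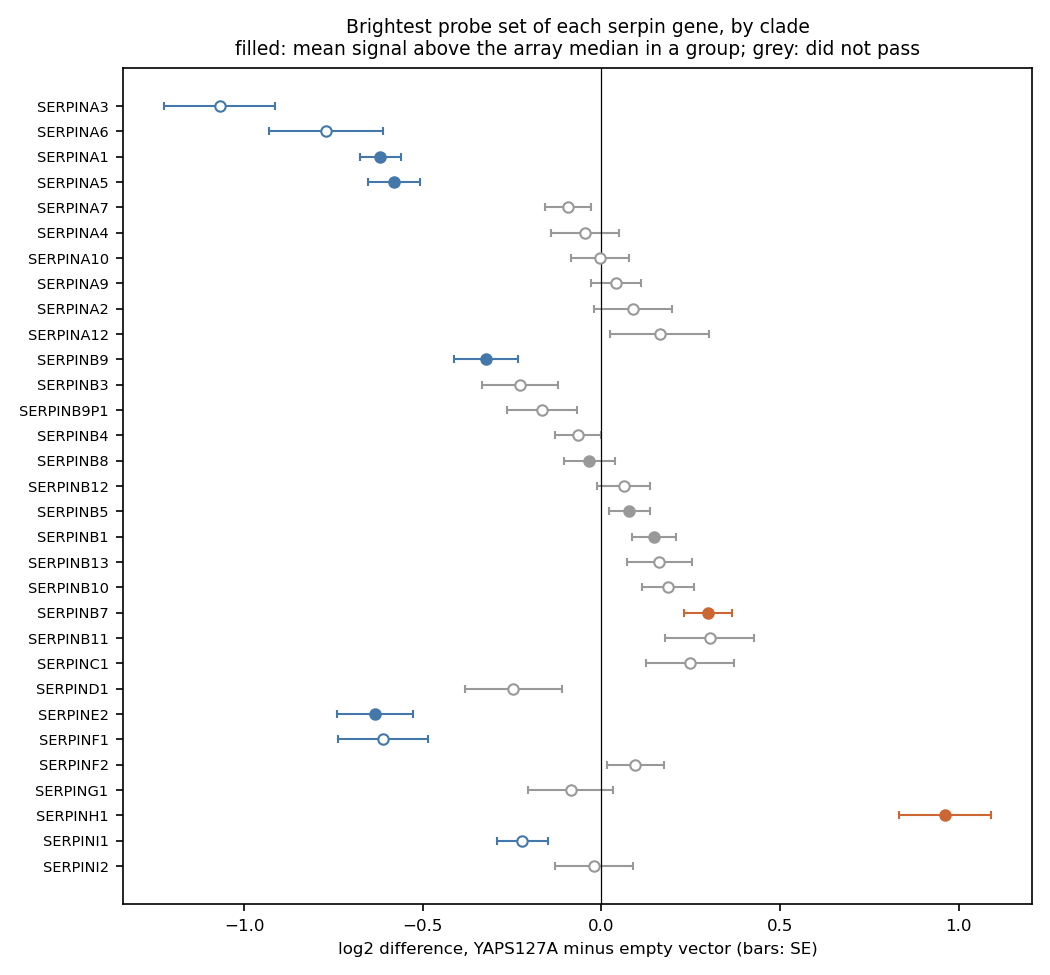
Log2 difference (YAPS127A minus empty vector, 4 and 5 arrays) of the brightest probe set of each of 31 serpin genes, ordered by clade, with bars for the SE. Blue points fell, orange points rose and grey points did not pass, and open points lay below 5.96 in both groups. The 4 lowest points of clade A, those of SERPINE2 and SERPINF1, and the high point of SERPINH1 stand apart from the rest.

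Signal strength split the family. Only 9 genes had a mean above 5.96 in at least 1 group: SERPINA1, SERPINA5, SERPINB1, SERPINB5, SERPINB7, SERPINB8, SERPINB9, SERPINE2 and SERPINH1. Of these, 6 passed, beside 41.2% of all genes as bright. The other 22 stayed below that level in both groups, and 4 of them passed (18.2%), all lower (SERPINA3, SERPINA6, SERPINF1 and SERPINI1). Among all 19775 genes 5676 passed, and 5150 of those were among the 12494 above that level in a group. Several of the dim probe sets repeated 1 value across arrays, such as SERPINB4 with the same value on 6 of 9 arrays and SERPINA2 on 5.

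SERPINA1 encodes alpha-1-antitrypsin, the main inhibitor of neutrophil elastase in plasma. Its brightest probe set read 12.75, 12.71, 12.80 and 12.77 in the empty vector arrays and 12.08, 12.20, 12.10, 12.18 and 12.14 in the YAPS127A arrays. Every YAPS127A array thus lay below every empty vector array. The fall was 0.62 on the log2 scale (a difference of -0.62, SE 0.06), or 1.54-fold, with an adjusted p = 1.12e-05.

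The gene's other probe sets did not move alike. The second brightest went from 12.50 ± 0.07 (SD, n = 4) to 11.92 ± 0.11 (SD, n = 5), a difference of -0.58 (adjusted p = 0.000106). The third read 7.74, 8.05, 8.05 and 7.92 with the empty vector and 6.28, 6.13, 6.16, 6.24 and 6.46 with YAPS127A. Its difference of -1.69 (SE 0.09, adjusted p = 1.23e-07), a 3.22-fold fall, was larger than that of both brighter probe sets. Within each array, its gap to the brightest probe set widened by 1.07, from -4.82 ± 0.15 (SD, n = 4) to -5.89 ± 0.15 (SD, n = 5). A 2-sided exact permutation test of this gap, chosen after the values were seen, gave p = 0.00794, the smallest that 9 arrays allow. The gap between the 2 brighter probe sets changed by 0.04 (p = 0.468, 2-sided exact permutation test). The dimmest lay at 3.16 and 3.15 and did not pass. Which transcript forms each probe set reads was not analysed here.

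**Figure D2:**
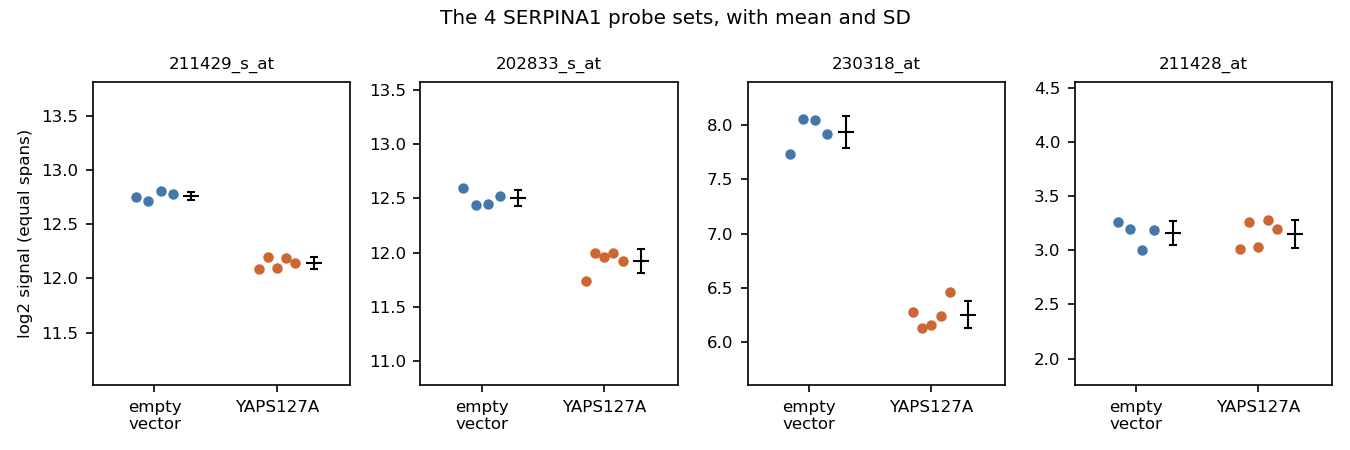
Log2 signal of the 4 SERPINA1 probe sets on each array (empty vector, n = 4, blue; YAPS127A, n = 5, orange), with mean and SD in black and axes of equal span. The first 2 fell by about the same amount, the third fell by 1.69, and the dimmest stayed near 3.16.

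SERPINA3 and SERPINA5, also inhibitors of secreted proteases, fell as well. SERPINA3, alpha-1-antichymotrypsin, inhibits cathepsin G and chymases and rises in the acute phase response. It read 6.16, 6.09, 5.50 and 5.91 with the empty vector and 4.63, 5.07, 4.51, 5.07 and 4.98 with YAPS127A. The lowest empty vector array, replicate 3, was still above every YAPS127A array. Its difference of -1.07 (SE 0.16, adjusted p = 0.00034) rests on signals below the median of all values in most arrays. SERPINA5, the protein C inhibitor, read 6.72, 6.66, 6.72 and 6.68 against 5.94, 6.10, 6.25, 6.08 and 6.21. The empty vector arrays lay close together and above all others, with a difference of -0.58 (SE 0.07, adjusted p = 0.000104).

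Of the hormone carriers in the clade, SERPINA6 fell and SERPINA7 did not pass. SERPINA6, the corticosteroid-binding globulin, read 5.56, 5.62, 6.07 and 5.32 with the empty vector and 5.21, 4.52, 4.73, 4.99 and 4.90 with YAPS127A. The groups nearly touched, at 5.32 and 5.21, and the difference was -0.77 (SE 0.16, adjusted p = 0.00368). SERPINA7, the thyroxine-binding globulin, lay at 3.66 and 3.56. The other 5 clade A genes, SERPINA2, SERPINA4 (kallistatin), SERPINA9, SERPINA10 (the protein Z-dependent inhibitor) and SERPINA12 (vaspin), were dim and differed by -0.05 to 0.16, and none passed. Clade A thus had 4 of 10 genes lower (40%, beside 14.2% of all genes) and none higher (beside 14.5%).

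Of the 10 clade A genes, 9 lie in a cluster on chromosome 14, here in the order SERPINA10, SERPINA6, SERPINA2, SERPINA1, SERPINA9, SERPINA12, SERPINA4, SERPINA5 and SERPINA3. The 4 genes that fell do not form 1 block: SERPINA6 and SERPINA1 have SERPINA2 between them, and 3 genes that did not pass separate them from SERPINA5 and SERPINA3. The signals of up to 50 other genes nearest on the chromosome also lay lower there, by a median of -0.16. With that median subtracted on each array, SERPINA1, SERPINA3, SERPINA5 and SERPINA6 were at -0.45, -0.91, -0.42 and -0.61 and still passed.

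**Figure D3:**
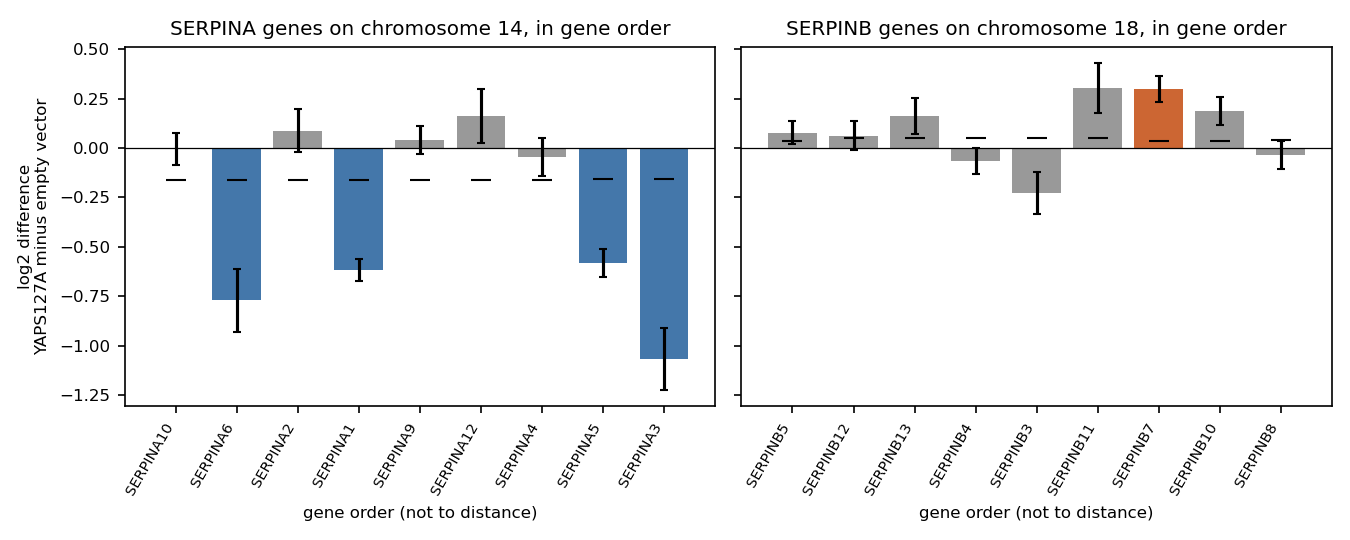
Log2 difference (YAPS127A minus empty vector, with SE) of the serpin genes on chromosome 14 and chromosome 18 in gene order, with equal spacing. Blue bars fell, the orange bar rose, grey bars did not pass, and the short black lines give the median difference of neighbouring genes (-0.16 on chromosome 14, 0.04 to 0.05 on chromosome 18).

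SERPINE2, protease nexin-1, inhibits thrombin, urokinase and tissue plasminogen activator at the cell surface. It read 8.25, 7.89, 7.76 and 7.94 with the empty vector and 7.28, 7.30, 7.47, 7.11 and 7.46 with YAPS127A. No YAPS127A array reached the lowest empty vector array, and the difference was -0.63 (SE 0.11, adjusted p = 0.000908), or 1.55-fold lower. Its second probe set was dim, at 4.18 and 4.06, and did not pass. The mean of both was at -0.37, smaller by more than 1.5 times, and passed (adjusted p = 0.00316). SERPINI1, neuroserpin, an inhibitor of tissue plasminogen activator, was dim at 5.81 ± 0.10 (SD, n = 4) and 5.59 ± 0.09 (SD, n = 5). Its fall of 0.22 (a difference of -0.22, adjusted p = 0.0452) was close to the threshold. Its call was lost in 10 of 17 alternative analyses, among them those without empty vector replicates 1, 2 or 4 or YAPS127A replicates 1, 3, 4 or 5 (-0.23 to -0.18).

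SERPINF1 encodes pigment epithelium-derived factor, a secreted serpin that restrains blood vessel growth and inhibits no protease. It read 5.01, 5.31, 5.15 and 5.06 with the empty vector and 4.07, 4.54, 4.74, 4.60 and 4.67 with YAPS127A. The groups did not overlap, and the difference was -0.61 (SE 0.13, adjusted p = 0.00373), at signals below the median in both groups. SERPINF2, the inhibitor of plasmin, is also on chromosome 17 and lay at 5.39 and 5.48 and did not pass (adjusted p = 0.47). SERPING1, the C1 inhibitor of complement and contact activation, was at 4.77 and 4.68. SERPIND1, heparin cofactor II, was at 3.75 and 3.50. SERPINC1, antithrombin, had a difference of 0.25 (SE 0.12, adjusted p = 0.185) at a level of 4.31 and 4.56, and its other probe set differed by -0.02. Genes around SERPINC1 lay lower by a median of -0.32, and with that median subtracted it was at 0.56 and passed (adjusted p = 0.00475). SERPINI2 was among the dimmest members, at 2.25 and 2.23. None of these 5 passed without that subtraction.

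The intracellular clade B held most of the bright serpins, and they differed little. SERPINB9 inhibits granzyme B, the protease that cytotoxic lymphocytes inject into target cells. It read 11.28, 11.27, 11.50 and 11.30 with the empty vector and 10.96, 10.996, 11.26, 10.82 and 11.03 with YAPS127A. The highest YAPS127A array came just below the lowest empty vector array, and the difference was -0.32 (SE 0.09, adjusted p = 0.0204). The call was lost without empty vector replicate 3 (-0.27, adjusted p = 0.0623). Its dimmest probe set also fell (-0.30, adjusted p = 0.0426), a call that 8 of 16 alternatives lost, and the second brightest did not pass (-0.03). The pseudogene SERPINB9P1, which lies between SERPINB1 and SERPINB9 on chromosome 6, was at 5.20 and 5.03 and did not pass.

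SERPINB7, or megsin, which is best known from the epidermis, was the only clade B gene that rose. It read 9.07, 8.96, 9.02 and 8.98 with the empty vector and 9.17, 9.39, 9.40, 9.31 and 9.27 with YAPS127A. All 5 YAPS127A arrays lay above all others, although the difference was small (+0.30, SE 0.07, adjusted p = 0.00616). It lies on chromosome 18 among 9 measured SERPINB genes, and the others of that group did not pass.

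The 3 other bright clade B genes did not pass. SERPINB1, an inhibitor of neutrophil elastase, cathepsin G and proteinase 3, was at 11.24 and 11.39 (adjusted p = 0.114), and the unadjusted 95% interval of its difference ran from 0.01 to 0.28. Of its 4 probe sets, 3 differed by 0.15 to 0.17 and the dimmest by -0.15, and none passed. SERPINB5, or maspin, first described in breast epithelium and without known inhibitory activity, was at 11.14 and 11.22, with an interval from -0.05 to 0.20. SERPINB8, an inhibitor of furin, was at 7.95 and 7.91, with an interval from -0.19 to 0.12, and the mean of its 2 probe sets was at -0.25 (adjusted p = 0.0964). These intervals are for the brightest probe sets alone and rest on the spread among these arrays. They do not show that there was no change, and for SERPINB8 the mean over its probe sets lay outside the interval.

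The remaining clade B genes gave low signals. SERPINB3 and SERPINB4, near-identical inhibitors also known as squamous cell carcinoma antigens, lay at 2.98 and 2.75 and at 2.25 and 2.19. The probe set that names both was at 3.94 and 3.78 and did not pass (adjusted p = 0.0848), and signals of these 2 genes may be shared. SERPINB13, with 6 probe sets between 2.05 and 4.50 by group mean, had none that passed. SERPINB10, SERPINB11 and SERPINB12 lay between 3.27 and 4.65.

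**Figure D4:**
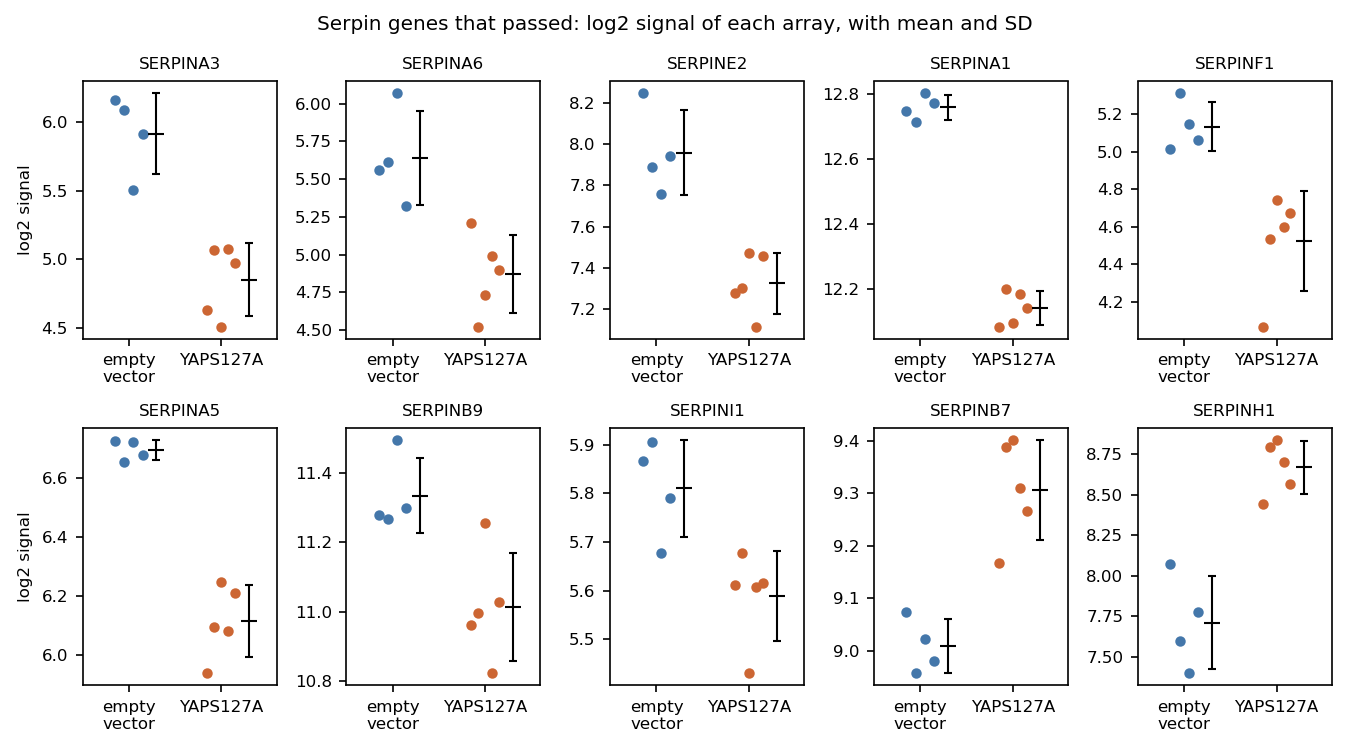
Log2 signal of each array for the 10 serpin genes that passed (empty vector, n = 4, blue; YAPS127A, n = 5, orange), with mean and SD in black and a separate vertical scale for each gene. The groups overlap only in SERPINI1, and the last panels show the 2 genes that rose, SERPINB7 by 0.30 and SERPINH1 by 0.96.

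SERPINH1 had the largest rise. It encodes HSP47, a chaperone that binds procollagen and inhibits no protease. It read 8.07, 7.60, 7.40 and 7.78 with the empty vector and 8.45, 8.80, 8.84, 8.70 and 8.57 with YAPS127A. The groups did not overlap, although the empty vector arrays spread over 0.67. The rise of 0.96 (SE 0.13, adjusted p = 0.00019), or 1.95-fold, was the opposite of the falls among secreted serpins. In all 18 alternative analyses it passed, at 0.86 to 1.08.

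Other genes that fold and modify collagen also rose more often than they fell. Of 21 measured of 24 listed, 9 rose, 1 fell and 11 did not pass (47.6%, beside 28.7% of all genes), with a median of +0.18 against 0.00 over all genes. P3H2, a prolyl 3-hydroxylase, rose by 1.00 (SE 0.07, adjusted p = 1.79e-06). P4HA1, a subunit of prolyl 4-hydroxylase, rose by 0.83 and KDELR3, a receptor that returns proteins to the endoplasmic reticulum, by 0.58. MIA3, which helps to export procollagen from the endoplasmic reticulum, fell (-0.60). The neighbours of P4HA1 lay higher by 0.34 and those of MIA3 lower (-0.24). With the neighbours' median subtracted P4HA1 was at 0.49 and MIA3 at -0.36, and as means over their probe sets P3H2 and P4HA1 were at 0.59 and 0.46, and each still passed. COL1A1, a chain of type I collagen and thus a client of the chaperone, was looked up after the values were seen, and it fell from 8.21 ± 0.08 (SD, n = 4) to 7.51 ± 0.11 (SD, n = 5). COL1A2 (4.44 and 4.56) and COL3A1 (4.88 and 4.90) were dim and did not pass. Among the 6 mesenchymal markers, whose mean signal was 5.99 to 6.13 in the empty vector arrays and 6.63 to 6.73 in the YAPS127A arrays, VIM rose by 4.13 while PDGFRB and DCN were dim. The part of these markers in the rise of SERPINH1 was not tested.

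The activators that SERPINE2 and SERPINI1 inhibit moved in opposite directions. PLAU, urokinase, read 11.89, 11.85, 11.71 and 11.68 with the empty vector and 11.14, 11.30, 11.22, 11.19 and 11.002 with YAPS127A, a difference of -0.61 (SE 0.08, adjusted p = 0.000107). PLAT, tissue plasminogen activator, read 9.57, 9.76, 9.98 and 9.56 against 10.37, 10.14, 10.05, 10.15 and 10.23. Neither gene overlapped between groups, and PLAT rose by 0.47 (SE 0.10, adjusted p = 0.00409). PLAUR, the receptor of urokinase, went from 11.04 ± 0.17 (SD, n = 4) to 11.30 ± 0.13 (SD, n = 5) and did not pass (adjusted p = 0.0671). It passed under 5 of 18 alternatives, at 0.26 to 0.32, among them the analysis without empty vector replicate 1. Of 12 measured plasminogen system genes of 13 listed, 1 rose, 3 fell and 8 did not pass (33.3%, beside 28.7% of all genes), with a median of -0.12. The others that fell were TFPI2, a Kunitz inhibitor of plasmin (-0.52), and PLG, plasminogen (-0.60). The groups overlapped for TFPI2, and its call was lost with the replicate number as a block (-0.55, adjusted p = 0.0551). The neighbours of PLAU lay higher by 0.31 and those of PLAT lower (-0.22). PLG lay at 5.959 and 5.362, below the median signal of 5.960 in both groups. The neighbours of PLG lay lower (-0.43). With their median subtracted the difference of PLG shrank to -0.17 and did not pass (adjusted p = 0.277). As the mean of its probe sets PLG was at -0.20.

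Among the wider set of proteases that serpins or other inhibitors restrain, changes were larger and went both ways. Of 44 measured of 45 listed, 10 rose, 7 fell and 27 did not pass (38.6%, beside 28.7% of all genes). The median was +0.02. TMPRSS2 (-3.05, SE 0.07, adjusted p = 3.47e-10) and TMPRSS4 (-2.26), serine proteases anchored in the cell membrane, fell. The kallikreins KLK6 (+2.83) and KLK10 (+2.76) rose. Averaged over its probe sets TMPRSS2 was at -0.96 and still passed. GZMB, the target of SERPINB9, was dim at 3.31 and 3.43 and did not pass (adjusted p = 0.252).

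Genes of coagulation, of serpin uptake and of other inhibitor families completed the comparison. Of 17 measured coagulation and thrombin receptor genes of 18 listed, 3 rose and 2 fell (29.4%, beside 28.7% of all genes, median +0.04). PROS1, the protein S cofactor of protein C, rose by 1.69 (SE 0.12, adjusted p = 1.53e-06). PROCR, the receptor of protein C, rose by 0.62, and F2RL2, a thrombin receptor, by 0.58 (0.30 as the mean of its probe sets), while THBD, thrombomodulin, fell (-0.23). F2R, a further thrombin receptor, also fell, from 10.21 to 9.93 (-0.28, adjusted p = 0.0303), with overlapping groups. THBD lost its call without empty vector replicate 1 (-0.21) and with the replicate number as a block (-0.25, adjusted p = 0.0713). Of 7 measured uptake receptors of 9 listed, LRP8 and SORL1 rose by 0.52 and 0.36 and 5 did not pass. The share that passed was 28.6%, beside 28.7% of all genes, and the median was 0.00. LRP8 was at 0.12 with its neighbours' median of 0.41 subtracted and then did not pass. LRP1, the main receptor that clears serpin-protease complexes, was at 6.63 and 6.60 (adjusted p = 0.889).

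Of 37 measured inhibitors of other families of 39 listed, 4 rose, 11 fell and 22 did not pass (40.5%, median -0.02). Of all genes 28.7% passed, with 14.5% higher and 14.2% lower. The falls of SPINK4 (-3.63, SE 0.08, adjusted p = 1.49e-10), a Kazal inhibitor, and of the cystatins CSTA (-1.71) and CST4 (-1.29) exceeded those of all serpins by their brightest probe sets. WFDC2, a whey acidic protein domain gene, fell as well (-1.44), though as the mean of its probe sets it was at -0.47. SPINT1, SPINT2 and SLPI, which inhibit serine proteases, differed by +0.02, +0.19 and -0.01, and of these SPINT2 passed (adjusted p = 0.0424).

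**Figure D5:**
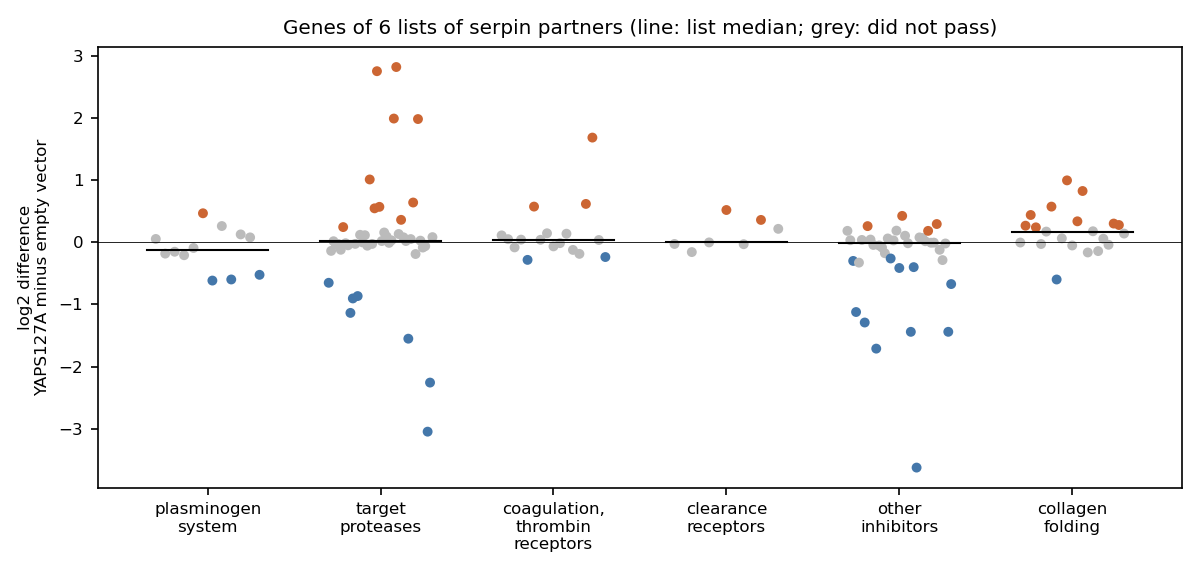
Log2 difference (YAPS127A minus empty vector) of each measured gene in 6 lists of serpin partners, with orange points higher, blue points lower, grey points that did not pass, and a line at each list's median. The collagen folding list has 9 points higher and 1 lower, while the target proteases reach from -3.05 to 2.83.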

How the data were processed

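The authors deposited 1 value per probe set and array (9 arrays), taken here as log2 signal, as judged from their range of 1.62 to 14.82, since no header states the unit. How the authors corrected, normalized and summarised the arrays is a step not given in the sources used here. Medians were nearly equal between arrays, and no scaling was added. There were 0 columns of other samples. The members and lists were chosen with earlier results of these data known.

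The fit took 54613 probe sets, without the array's 62 controls. A platform annotation names 1 gene for 41091, several for 1801 and none for 11721, and symbols were updated through RefSeq gene IDs (41037 matched), which changed 0 serpin symbols. Groups were compared with limma 3.58.1 in R 4.3.3 (lmFit and eBayes, no covariate) with Benjamini-Hochberg adjustment over all probe sets. Errors beside differences are SEs (11.4 degrees of freedom) and those beside levels are SDs. The fit was tested on simulated data. Up to 50 neighbours were the nearest of 12209 genes above the median signal, in RefSeq order, since the array's build is not named. Figures used matplotlib 3.10.9.

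The rule for named genes gives every serpin, with values per array for those that passed with a signal above the median and for SERPINA1 and SERPINH1 in any case. SERPINA3, SERPINA6 and SERPINF1 were added after their values were seen. Of each list it takes up to 4 members that passed with the lowest p-values, and PLAU, PLAT, PLAUR and LRP1. A further gene that the rule names is not analysed here. VIM, COL1A1, COL1A2, COL3A1, GZMB, F2R, SPINT1, SPINT2 and SLPI were named after their values were seen. The alternatives were quantile normalization, centring on the median, leaving out dim probe sets, trend and robust eBayes, array weights, the actin gap as a covariate, a replicate block, each array left out, the neighbours' median removed and the mean over probe sets. A pseudocount was not needed on the log scale.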

Additional observations from a re-analysis of the deposited data

Results flagged for a closer look

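Within groups, 118 sets of arrays were tested for 1 array far from the rest (Dixon's ratio, 95% critical value), and 10 had such an array. Chance gives about 1 in 20 for normally spread values. That rate does not hold for sets in which arrays repeat a value, such as SERPINB4. Among the serpins, SERPINB9 in empty vector replicate 3 was at 11.50, above 11.27 to 11.30 in the other arrays of its group. SERPINI1 in YAPS127A replicate 3 was at 5.43, below 5.61 to 5.68. SERPINB8 in YAPS127A replicate 4 was at 8.11, above 7.83 to 7.91. The dim probe sets gave SERPINA10 in YAPS127A replicate 5 at 4.33 (others 4.15 to 4.20), SERPINA2 in YAPS127A replicate 3 at 4.15 (others 3.67 to 3.75), SERPINB4 in empty vector replicate 1 at 2.39 (others all 2.21) and SERPINB4 in YAPS127A replicate 1 at 2.09 (others 2.21 to 2.23). Among the partners, KLK10 in empty vector replicate 3 was at 8.45 (others 8.75 to 8.81) and P4HA1 in empty vector replicate 4 was at 11.06 (others 11.30 to 11.33). The actin 3' minus 5' signal of YAPS127A replicate 1 was 1.58, against 0.888 to 1.07 in the others of its group.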

How the results depend on the processing

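None of the 31 serpins, and none of the partners taken by the rule for named genes, had a call that reversed under the alternatives run. Partners named beyond that rule, such as SPINT2 and F2R, were not run. The 10 serpin genes that passed became 6 when dim probe sets were left out (9 genes then tested), and the 13 probe sets became 8. With 1 array left out, 9 to 10 serpin genes and 11 to 13 probe sets passed. The same range was 4 to 5 for the plasminogen system, 16 to 17 for target proteases, 3 to 5 for coagulation, 2 to 2 for uptake receptors, 11 to 14 for other inhibitors and 8 to 10 for collagen folding, and the actin gap between groups was -0.28 to -0.01. The value of 3 for coagulation came without empty vector replicate 1. With the neighbours' median removed, 8 coagulation genes and 1 uptake receptor passed. With the mean over probe sets, fitted and adjusted over genes, 12 serpin genes passed, SERPINB10 and SERPINB3 among them. SERPINB10 has only 1 probe set, so its difference of 0.19 was unchanged. Only its adjusted p moved, from 0.0866 over probe sets to 0.0457 over genes (limma). With the replicate number as a block (numbers 1 to 4), 10 serpin genes and 12 probe sets passed, and SERPINB11 was among those genes (0.33). Under that block 3 coagulation and 6 collagen folding genes passed. Deviations of same-numbered arrays correlated at -0.25, 0.04, 0.01 and 0.03. The labels do not say whether the numbers pair the samples, and so few correlations cannot settle it. The causes of these changes were not tested, apart from the smaller number of genes when dim ones are left out. The number of arrays limits the precision, and most serpins lay below the median signal.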
